A study of Mus musculus with 2 samples.

Results

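Fibronectin and the integrin subunits that can form its receptors were examined in RNA-sequencing of SOX9-GFPhi chondrospheres, as 9 genes of the 23628 listed in each library. Fibronectin (*Fn1*) was chosen by its level, since its mean was the highest of all genes. *Col2a1*, just outside that rule, was next below it with 148953 and 100682 CPM (counts-per-million) in the replicates. The 8 integrin genes were taken for their known pairing with fibronectin or with a subunit that binds it, and are the alpha subunits *Itga5*, *Itgav*, *Itga4* and *Itga8* and the beta subunits *Itgb1*, *Itgb3*, *Itgb5* and *Itgb8*. The samples are 2 libraries of 1 condition (replicates 1 and 2). They come from mouse chondrocytes, taken at postnatal day 7 from pups homozygous for a *Sox9* IRES-EGFP reporter allele, so that GFP follows *Sox9*, the regulator of cartilage identity. Cells with high GFP and without the surface markers CD31, Ter119 and CD45 were sorted from femoral heads and grown as colonies in methylcellulose at low oxygen. The medium held serum and the factors FGF2, BMP4, IGF1, LIF and TGF-β1, so protein fibronectin from serum was also present and is not seen by these measurements. Methods state that pups were harvested separately, but the labels do not tie either library to a pup, so the spread between the libraries may hold technical as well as biological differences. No control or other condition is compared here and no test between groups was made.

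Fibronectin is a large secreted glycoprotein that cells stretch into fibrils of the extracellular matrix. Integrins are receptors made of 1 alpha and 1 beta chain, which bind matrix outside the cell and link through talin and kindlin to actin inside it. The pair α5β1 is the classical fibronectin receptor and assembles its fibrils. The chain αv pairs with β1, β3, β5, β6 or β8 and binds fibronectin, vitronectin, osteopontin or latent TGF-β according to its partner, while α8β1 binds nephronectin and fibronectin and α4β1 binds fibronectin and VCAM1. In cartilage, fibronectin is plentiful where mesenchymal cells condense and is made again by cultured or injured chondrocytes.

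The arginine-glycine-aspartate (RGD) site is what α5β1, α8β1 and most αv pairs recognise. Its codons are shown here in capitals for *Fn1* and for some of the other ligands whose RNA was present. These 3 residues also occur in the products of *Thbs1*, *Emilin1*, *Ibsp*, *Npnt*, *Tgfb1* and *Tgfb3*, which are not printed. The sequences were read from the GENCODE M21 transcripts of GRCm38. In *Fn1* the integrin-binding site lies in exon 30 of 46 of the coding transcript ENSMUST00000055226.12, at chr1:71606728-71606772 on the minus strand, and encodes residues 1614 to 1616 of 2477. The same 3 residues occur once more in this protein, at residues 2181 to 2183 in exon 40 (chr1:71597425-71597469), a match of letters that is not printed. The lines for *Spp1* (chr5:104439463-104439507, plus strand, exon 7), *Edil3* (chr13:89042473-89042517, plus strand, exon 4), *Mfge8* (chr7:79145290-79145334, minus strand, exon 3) and *Fbn1* (chr2:125345955-125345999, minus strand, exon 37) are also within 1 coding exon.
Fn1: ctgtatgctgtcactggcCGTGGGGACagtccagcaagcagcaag
Spp1: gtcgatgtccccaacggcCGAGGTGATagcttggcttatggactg
Edil3: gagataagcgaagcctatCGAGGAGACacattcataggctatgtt
Mfge8: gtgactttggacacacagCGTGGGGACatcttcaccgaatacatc
Fbn1: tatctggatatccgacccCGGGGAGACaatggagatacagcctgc

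The α4β1 pair recognises another site, ending in leucine-aspartate-valine, in the variable region of fibronectin that splicing includes or skips. Its codons, with the isoleucine codon before them, are in capitals, at chr1:71597665-71597712 on the minus strand in exon 40.
Fn1 variable region: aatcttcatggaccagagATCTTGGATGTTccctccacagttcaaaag
The annotation holds 7 *Fn1* coding transcripts with at least 80% of the longest protein. The printed exon 30 sequence is in 7 of 7 and the printed variable-region sequence in 3 of 7. The deposited values are 1 per gene, so the *Fn1* level is not divided between these transcripts.

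Inside the cell, talin binds the beta chain at a short tail motif of asparagine, proline, any residue and tyrosine. It was searched in the last 60 residues of each beta member, and its first copy is in capitals for the 3 members that hold one. The *Itgb1* line is at chr8:128726175-128732058, the *Itgb3* line at chr11:104665621-104667115 and the *Itgb5* line at chr16:33947870-33948692, all on the plus strand, and each crosses 1 intron into the last coding exon.
Itgb1: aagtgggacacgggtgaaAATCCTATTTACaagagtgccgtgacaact
Itgb3: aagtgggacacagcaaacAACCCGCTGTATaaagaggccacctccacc
Itgb5: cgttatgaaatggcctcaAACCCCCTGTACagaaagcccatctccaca
No match was found in the tail of *Itgb8*. Of the 2 near-full-length *Itgb5* transcripts, 1 holds the motif.

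The unit is CPM, the share of a library's assigned reads that fell on a gene, after an offset of 0.0001 CPM on every value was subtracted. What 1 read is worth, read from the commonest value above 0, was 0.0231 and 0.0237 CPM in the replicates and gives 43300000 and 42100000 reads on genes. A level of 3 reads is then 0.0693 and 0.0712 CPM, and all intervals and floors given here cover counting error only. All 8 chondrocyte markers were above 1 CPM in both libraries, and their sum of 177050 and 122023 CPM was mostly *Col2a1*. The transcription factor gene *Sox9* had 252 and 279 CPM, and the matrix genes *Acan* 14170 and 12002 CPM, *Col11a1* 9755 and 7347 CPM and *Hapln1* 396 and 544 CPM. Of the other 3 markers, 2 were much lower in replicate 2, *Matn1*, a matrilin of cartilage, at 902 and 29.2 CPM and its relative *Matn3* at 741 and 53.1 CPM. The collagen IX gene *Col9a1* was less far apart, at 1881 and 1087 CPM. For the cell types removed by the sort, the endothelial list of 5 summed to 0.231 and 0.166 CPM with *Cdh5*, *Kdr*, *Emcn* and *Tek* at 0, and the erythroid list of 4 to 0.0930 and 0.120 CPM. The leukocyte list summed to 0.693 and 1.22 CPM over the 5 of 6 genes listed, with *Ptprc*, the gene of CD45, at 0.0231 and 0.0475 CPM and *Tyrobp* at 0.

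*Fn1* was measured at 183979 and 161946 CPM in replicates 1 and 2 (172962 ± 15580, SD, n = 2). It took 18.4% and 16.2% of each library. It lies on chromosome 1 of GRCm38 from 71585520 to 71653200, on the minus strand, with 11685 bases of annotated exons. As long genes give more reads per transcript, levels of different genes are compared here per kilobase of exons. On that scale *Fn1* had 15745 CPM per kilobase in replicate 1 and 13859 in replicate 2, also the highest mean of all genes. The ratio of *Fn1* to *Col2a1*, the collagen II gene, was 0.977 in replicate 1 and 1.27 in replicate 2 per kilobase of exons, so which of the pair was higher differed between the libraries. Both this and the first place of *Fn1* depend on the length used. Per kilobase of the longest coding transcript *Col2a1* was higher in both replicates, at 29184 and 19726 against 22126 and 19476 for *Fn1*. As the members were chosen on the *Fn1* level, it is given as a description.

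The 8 integrin members lay far below their ligand and far apart from each other. Together they summed to 235 CPM per kilobase in replicate 1 and 417 in replicate 2. *Fn1* exceeded that sum 66.9-fold and 33.3-fold, which is 5.56 ± 0.71 on the log2 scale (SD, n = 2). This too is a description, since it holds the *Fn1* level that chose the members.

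**Figure D1:**
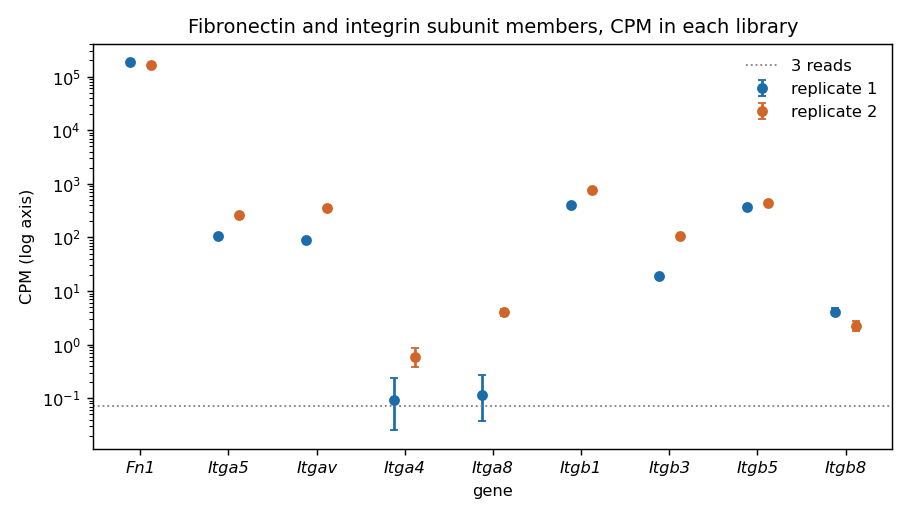
Level of *Fn1* and the 8 integrin members in CPM on a log axis, with 1 point per library, bars for the 95% Poisson counting interval and a dotted line at 3 reads. *Itgb1* and *Itgb5* are the highest subunits, *Itga4* and *Itga8* sit at 0.0924 and 0.116 CPM in replicate 1, near the line, and *Itgb3* and *Itgav* are well apart between the libraries.

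Among the alpha chains, *Itga5* was the highest per kilobase in both libraries. *Itga5*, the partner of β1 in the classical receptor, had 107 and 266 CPM in replicates 1 and 2 (187 ± 113, SD, n = 2), or 21.6 and 54.0 CPM per kilobase. The gene lies on the minus strand of chromosome 15 from 103344286 to 103366763. *Itgav*, the alpha chain of several RGD receptors, spans 83724397 to 83806916 of chromosome 2 on the plus strand. It had 88.0 and 360 CPM (224 ± 193, SD, n = 2), or 8.19 and 33.5 CPM per kilobase. The log2 ratio of *Itgav* to *Itga5* per kilobase was -1.40 in replicate 1 and -0.69 in replicate 2, with -1.04 ± 0.50 as mean and SD (n = 2), so *Itga5* exceeded *Itgav* by more than the spread. Without the division by length this order was not kept, as *Itgav* has 10744 exonic bases and *Itga5* 4933.

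The other alpha members were close to the depth limit in at least 1 library. *Itga8*, which marks smooth muscle and mesenchymal cells elsewhere, had 0.116 CPM in replicate 1, about 5 reads, with a 95% Poisson interval of 0.0375 to 0.270 CPM. In replicate 2 it had 4.06 CPM, about 171 reads, with an interval of 3.47 to 4.71 CPM. The intervals do not meet, and the plain ratio between replicates 2 and 1 was 35.1, with an exact 95% counting interval of 14.8 to 109.5. *Itga4*, better known from leukocytes, had 0.0924 and 0.593 CPM, about 4 and 25 reads. Its plain ratio between the replicates was 6.42 with a counting interval of 2.22 to 25.4. Both genes are on chromosome 2, *Itga8* from 12106632 to 12301922 on the minus strand and *Itga4* from 79255426 to 79333123 on the plus strand. Per kilobase *Itga4* was the lowest of the 8 in both libraries, at 0.00661 and 0.0424 CPM per kilobase.

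Among the beta chains, 2 genes carried most of the RNA. *Itgb1*, the common partner of many alpha chains, had 408 and 760 CPM (584 ± 249, SD, n = 2), or 99.9 and 186 CPM per kilobase. *Itgb5*, which pairs with αv alone and is best known as part of a vitronectin receptor, had 363 and 439 CPM (401 ± 54.3, SD, n = 2), or 102 and 124 CPM per kilobase. The log2 ratio of *Itgb1* to *Itgb5* was -0.03 in replicate 1 and 0.59 in replicate 2, so these neighbours did not differ beyond their spread. *Itgb3*, which also pairs with αv and is abundant in osteoclasts and platelets, followed at 18.8 and 108 CPM (63.6 ± 63.4, SD, n = 2), or 3.18 and 18.4 CPM per kilobase. It lay 31.4-fold below *Itgb1* in replicate 1 and 10.1-fold below it in replicate 2. *Itgb8*, the chain of an αv receptor that activates latent TGF-β, had 4.09 and 2.25 CPM (3.17 ± 1.30, SD, n = 2), or 0.370 and 0.204 CPM per kilobase. *Itgb1* (chromosome 8, 128685654 to 128733200), *Itgb3* (chromosome 11, 104608000 to 104670476) and *Itgb5* (chromosome 16, 33829665 to 33949338) lie on the plus strand and *Itgb8* (chromosome 12, 119158022 to 119238802) on the minus strand.

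In the order of the 8 subunits per kilobase (*Itgb1*, *Itgb5*, *Itga5*, *Itgav*, *Itgb3*, *Itgb8*, *Itga8*, *Itga4*), 5 of the 7 steps were beyond the spread between the libraries. The exceptions were the step from *Itgb1* to *Itgb5* and that from *Itgb8* to *Itga8*, both of which changed direction between the libraries. Before division by length, 3 of 7 steps were beyond the spread. The step per kilobase from *Itga8* to *Itga4*, counted among the 5, rests in replicate 1 on about 5 and 4 reads. The counting intervals of these 2 genes overlap there. The order says how the RNA levels compare, and protein on the cell surface was not measured.

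The members stood beside 18 other integrin subunit genes, 14 alpha and 4 beta. Of all alpha-subunit RNA per kilobase, the 4 alpha members made up 51.0% in replicate 1 and 74.5% in replicate 2. *Itga5* alone was 37.0% and 45.7%, and *Itgav* 14.0% and 28.3%. The largest of the others was *Itga10*, the collagen-binding chain typical of cartilage, with 29.4% in replicate 1 and 10.5% in replicate 2. *Itga10* stood between *Itga5* and *Itgav* in replicate 1 and below both in replicate 2. The laminin-binding chains *Itga6* and *Itga7* followed in replicate 1 with 9.42% and 5.33%. In replicate 2 they had 6.91% and 0.543%, and *Itga2*, another collagen-binding chain, had 2.58% against 0.476% in replicate 1. *Itga1*, which also binds collagen, had 1.99% and 2.04%.

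Of all beta-subunit RNA per kilobase, the 4 beta members made up 99.2% in replicate 1 and 99.6% in replicate 2. *Itgb1* held 48.2% and 56.5%, *Itgb5* 49.2% and 37.5%, and *Itgb3* 1.53% and 5.57%. Of the other 4, *Itgb4*, the laminin-binding chain of hemidesmosomes, was the only one above 1 CPM, at 11.5 and 8.99 CPM. *Itgb6*, the epithelial partner of αv, had 0.0462 and 0.0712 CPM, which is 2 and 3 reads. *Itgb7*, which pairs with α4 in lymphocytes, had 0.0693 and 0.0475 CPM. The leukocyte chain *Itgb2* had 0.0924 and 0.261 CPM, and of its partners *Itgam* and *Itgad* were at 0 in both libraries, while *Itgal* had 0.0693 and 0.0237 CPM and *Itgax* was listed at 0 and 0.0949 CPM. *Itgae*, the partner of β7 in epithelial lymphocytes, was listed at 0 and 0.261 CPM.

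**Figure D2:**
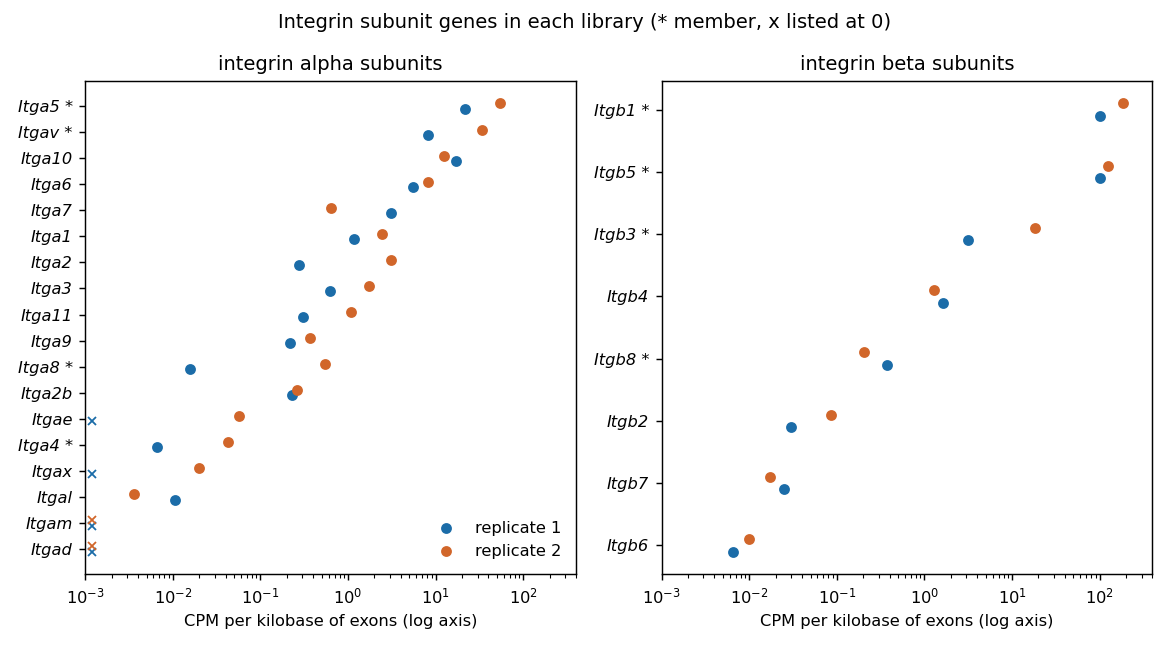
All 26 integrin subunit genes in CPM per kilobase of exons on a log axis, alpha chains on the left and beta chains on the right, with 1 point per library, an asterisk for members and a cross at the left edge for values listed at 0. *Itgb1* and *Itgb5* lie near or above 100 CPM per kilobase, *Itga5* and *Itgav* lead the alpha chains in replicate 2, and the leukocyte chains lie at the low end.

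**Figure D3:**
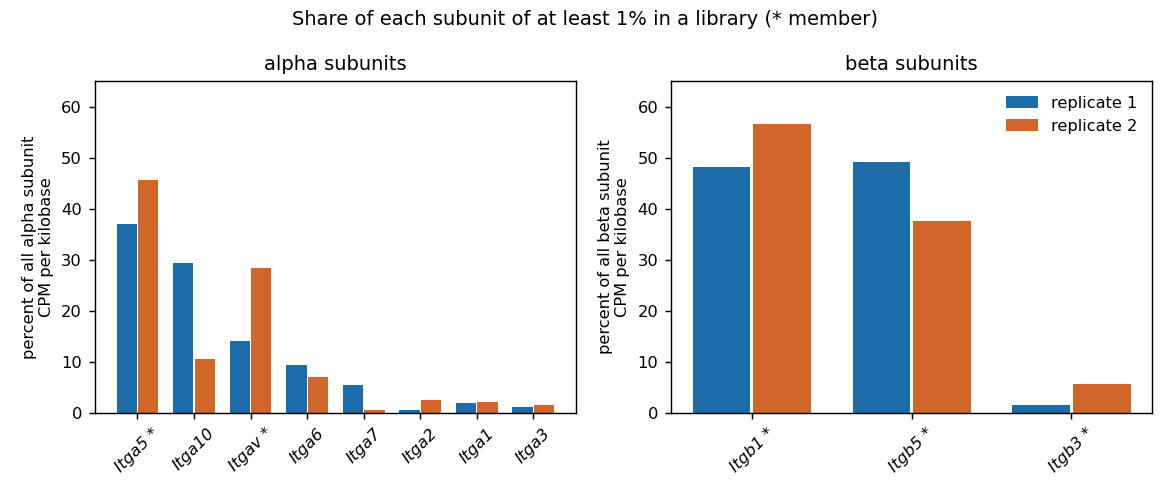
Share of each alpha chain among all alpha chains (left) and of each beta chain among all beta chains (right), in percent of CPM per kilobase, for subunits with at least 1% in a library. *Itgav* has 14.0% in replicate 1 and 28.3% in replicate 2 while *Itga10* has 29.4% and 10.5%, and *Itgb1* and *Itgb5* together leave little for *Itgb3*.

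As an integrin needs both chains, the level of the lower chain was also set out per kilobase. This was done for known pairs of the members and for some related pairs, and not for the pair of *Itga10*. For α5β1 the lower chain was *Itga5* in both libraries, and *Itgb1* exceeded it 4.62-fold in replicate 1 and 3.45-fold in replicate 2, so the beta chain was the more plentiful in both. For αvβ1 and αvβ5 the lower chain was *Itgav*, with *Itgb5* 12.5-fold above it in replicate 1 and 3.69-fold in replicate 2. For αvβ3 it was *Itgb3*, at 3.18 CPM per kilobase in replicate 1 and 18.4 in replicate 2, and the ratio of *Itgb3* to *Itgav* was 0.388 and 0.548. For αvβ8 it was *Itgb8*, at 0.370 and 0.204 CPM per kilobase. The pairs α8β1 and α4β1 were held down by their alpha chains to 0.0157 and 0.551 and to 0.00661 and 0.0424 CPM per kilobase. The platelet pair αIIbβ3 had 0.229 and 0.261 CPM per kilobase of *Itga2b*, and α9β1, which binds tenascin-C and osteopontin, 0.219 and 0.364 of *Itga9*. Thus α5β1 had the highest lower chain of these pairs in both libraries, at 21.6 and 54.0 CPM per kilobase, with αvβ1 and αvβ5 next. That order rests on the division by length, as in CPM *Itgav* was above *Itga5* in replicate 2, with 360 against 266. *Itgb1* is shared by many alpha chains, and it exceeded the sum of all 18 alpha subunits 1.71-fold in replicate 1 and 1.57-fold in replicate 2 (log2 0.71 ± 0.08, SD, n = 2).

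Of the members at or above 1 CPM on average, *Itga8*, *Itgb3* and *Itgav* were the furthest apart between the libraries. Differences are given as the log2 ratio of replicate 2 to replicate 1 with 0.1 CPM added to each value, minus the median over genes averaging 1 CPM or more, and a ratio on that scale understates the difference of low genes. That median was 0.30 as deposited. Of the 12631 genes so compared, 13.5% were more than 2-fold apart, 7.43% higher and 6.06% lower in replicate 2. That is 938 higher and 766 lower, and as deposited, without centring, 1435 higher and 468 lower. With 1 library on each side no test was possible, so these are counts past a fold and not calls of a test.

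Of the 9 members, 8 had a mean of at least 1 CPM, and *Itga8* did so only through replicate 2. *Itga8*, *Itgb3*, *Itgav* and *Itga5* were more than 2-fold higher in replicate 2, *Itgb8* was more than 2-fold lower, and *Fn1*, *Itgb1* and *Itgb5* were within 2-fold. That is 5 of 8, beside 13.5% of all genes. *Itgb3*, the partner of αv in the vitronectin receptor, had a log2 ratio of 2.22, or 4.66-fold, and 2.01% of all genes had a higher one. *Itgav* had 1.73, or 3.31-fold, with 3.30% of genes above it. *Itga5* was just past the limit at 1.02, or 2.02-fold, with 7.32% of genes above it. The shared chain *Itgb1* was at 0.59, *Itgb5* at -0.03, close to the median gene, and *Fn1* at -0.49, with 83.6% of genes above it. *Itga8* was at 3.97, a value that depends on the 0.1 CPM added, with 1.90 when 1 CPM was added and 4.71 with 0.01 CPM. For the well-covered genes counting error was small, as the plain ratio of *Itgb3* was 5.78 with an exact 95% counting interval of 5.36 to 6.24, and that of *Itgav* 4.09 with 3.95 to 4.24. *Itgb8* was at -1.14, and its plain ratio of 0.551 had a counting interval of 0.425 to 0.711. As deposited it was -0.83 and within 2-fold. Of the 18 other subunits, 10 averaged at least 1 CPM. Among these, 3 were more than 2-fold higher and 1 lower in replicate 2, beside 7.43% and 6.06% of all genes. The higher ones were the collagen-binding *Itga2* (1.99 and 21.8 CPM) and *Itga11* (1.57 and 5.53 CPM) and the laminin-binding *Itga3* (3.51 and 9.80 CPM), and the lower one was *Itga7* (25.2 and 5.20 CPM). As the libraries are bulk RNA, more cells of a type and more RNA per cell cannot be told apart.

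**Figure D4:**
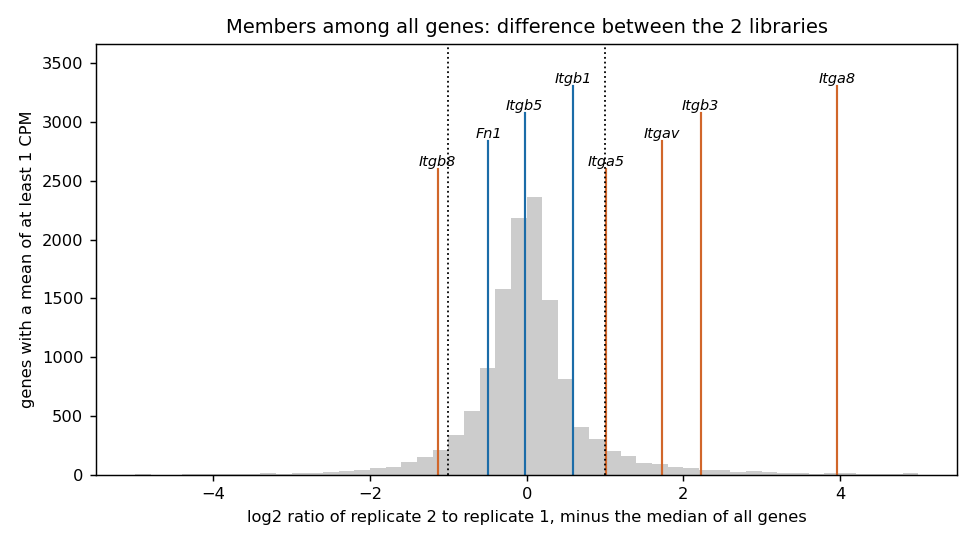
Histogram of the log2 ratio of replicate 2 to replicate 1, minus the median, over the 12631 genes averaging 1 CPM or more (values beyond 5 are in the end bins), with a line for each of the 8 members in it and dotted lines at 2-fold. *Itga8*, *Itgb3* and *Itgav* lie in the right tail, *Itga5* on the upper dotted line at 1.02, *Itgb8* past the lower one, and *Itgb5* at -0.03.

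Markers of chondrocytes and of cells that use these chains elsewhere were set beside the differences. Of the 8 chondrocyte markers, 3 (*Matn1*, *Matn3* and *Col9a1*) were more than 2-fold lower in replicate 2, beside 6.06% of all genes. Another 5 were within 2-fold and 0 higher, and all 8 together had a median log2 ratio of -0.79. *Col9a1* was past the limit only after centring, at -1.095, and as deposited it was at -0.791 and within 2-fold. For osteoclasts, which carry αvβ3, the 4 of 5 markers listed summed to 6.42 and 1.07 CPM in the replicates, of which *Acp5* had 6.07 and 0.712 CPM, *Oscar* 0.347 and 0.356 CPM, and *Ocstamp* and *Dcstamp* were at 0 in both. For platelets, *Pf4*, *Gp9* and *Ppbp* were at 0 in both libraries, and the list of 4 summed to 1.04 and 1.09 CPM, all of it *Gp1ba*. For smooth muscle, which carries *Itga8*, *Myocd* was at 0 in both, *Myh11* and *Cnn1* had 0.139 and 0.116 CPM in replicate 1 and 0 in replicate 2, *Acta2* had 53.4 and 93.0 CPM and *Tagln* 5.24 and 4.12 CPM, and the list of 5 summed to 58.9 and 97.1 CPM. The fibroblast list of 4 summed to 2.40 and 2.86 CPM, mostly *Pdgfra*, with *Pi16* at 0 in both. The osteoblast list of 4 stood at 4.40 and 50.7 CPM. In replicate 2 most of it was *Dmp1*, which had 0.116 and 40.4 CPM and reached 1 CPM only there. *Sp7* had 1.96 and 6.81 CPM. The other members of that list were *Ibsp* with 2.24 and 3.27 CPM, within 2-fold, and *Bglap* with 0.0787 and 0.229 CPM, about 3 and 10 reads. The part of these marker differences in the integrin differences was not tested.

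The other ligands of these receptors gave a wide range. Their levels are set beside that of *Fn1* as a description, since *Fn1* was chosen for the highest mean. *Spp1*, which encodes osteopontin, an RGD ligand of αvβ3, had 2803 CPM per kilobase in replicate 1 and 12454 in replicate 2. *Thbs1*, the gene of thrombospondin-1, had 662 and 890 CPM per kilobase. *Mfge8*, an RGD protein that bridges αv integrins to dying cells, had 98.1 and 101.5, and *Emilin1*, a ligand of α4 and α9, 75.2 and 98.7. *Fn1* exceeded the sum of the 12 listed ligands 4.27-fold in replicate 1 and 1.02-fold in replicate 2, with *Spp1* as the largest part of the sum.

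Between the libraries, 2 of the 9 ligands averaging 1 CPM or more were more than 2-fold higher in replicate 2, beside 7.43% of all genes. There was 1 lower, beside 6.06% of all genes, and 6 were within 2-fold. The median log2 ratio of the 9 was 0.09 against 0 for all genes by construction. The higher ones were *Spp1*, at 1.85, and *Edil3*, an RGD ligand of αvβ3 and αvβ5, at 1.39. *Edil3* stood at 131 and 422 CPM. The lower one was *Vcam1*, the cell-surface ligand of α4β1, with 35.6 and 14.9 CPM. *Npnt*, the nephronectin ligand of α8β1, gave no read in replicate 1 and about 8 reads, 0.190 CPM, in replicate 2. *Egfl6* and *Fgg* were at 0 in both libraries, and *Vtn*, *Fga* and *Fgb* are among the genes not analysed here.

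**Figure D5:**
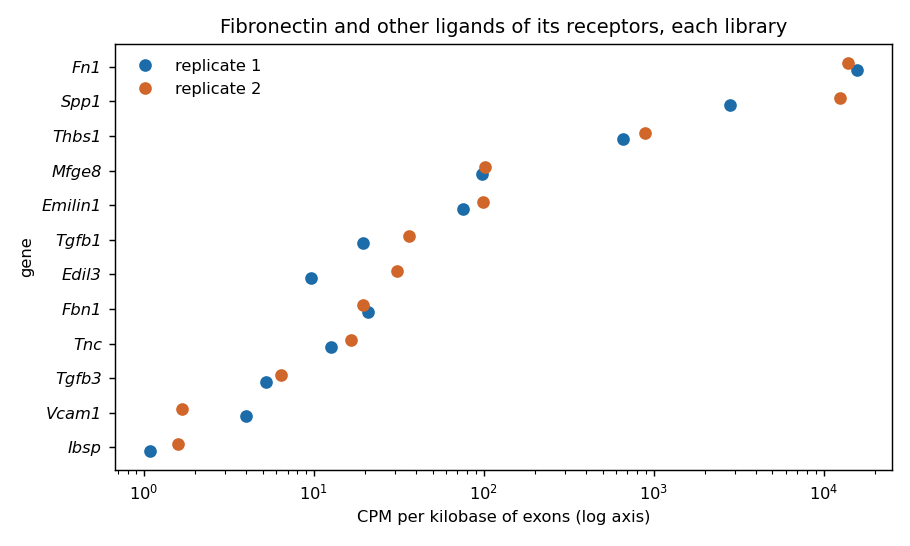
*Fn1* and the other ligands of its receptors, with *Tgfb1* and *Tgfb3*, in CPM per kilobase of exons on a log axis with 1 point per library, for genes with a mean above 0.1 CPM per kilobase. *Fn1*, chosen for its level, is at the top, and *Spp1* has 2803 CPM per kilobase in replicate 1 and 12454 in replicate 2.

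The αv pairs also bind the latent form of TGF-β, whose propeptide carries an RGD site in the products of *Tgfb1* and *Tgfb3*. Of the 9 genes of the latent TGF-β list, 8 had a mean of at least 1 CPM, with a median of 0.35. Among these, 3 were more than 2-fold higher in replicate 2, beside 7.43% of all genes, 0 lower and 5 within 2-fold. The 3 belong to 1 family of matrix proteins, most of which tie the latent factor to the matrix, with *Ltbp4* at 8.80 and 117 CPM, *Ltbp1* at 166 and 490 CPM and *Ltbp2*, which does not bind the factor, at 516 and 1283 CPM. *Ltbp2* was just past the limit at a log2 ratio of 1.01. The fourth of the family, *Ltbp3*, had 552 and 730 CPM. The factor itself was led by *Tgfb1* with 97.8 and 183 CPM, ahead of *Tgfb3* with 17.7 and 21.8 CPM and *Tgfb2* with 7.81 and 9.59 CPM. Of the proteins that hold it on cell surfaces, *Lrrc32* had 42.7 and 41.6 CPM and *Nrros* 0.462 and 0.641 CPM.

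The list drawn up around fibronectin assembly and co-receptors was led by *Sdc3*, a syndecan, at 1727 and 2065 CPM. *Sdc1* had 139 and 154 CPM and *Sdc2* 147 and 208 CPM. *Sdc4*, the syndecan that joins α5β1 in focal adhesions, had 233 and 168 CPM. *Tgm2*, a transglutaminase that crosslinks fibronectin and binds integrins, had 58.2 and 73.1 CPM, *Tnc*, the gene of tenascin-C, 98.2 and 128 CPM, and *Fbln1*, a fibulin that binds fibronectin, 0.416 and 1.07 CPM. Of the 8 genes of this list of 9 that averaged 1 CPM or more, 2 were more than 2-fold higher in replicate 2, beside 7.43% of all genes. The other 6 were within 2-fold, and the median of the 8 was 0.05. The higher ones were *Plaur*, the urokinase receptor that associates with integrins, at 4.25 and 63.8 CPM, and *Cd44*, the hyaluronan receptor, at 14.7 and 126 CPM.

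RNA of most genes that link the beta tails to actin was present in both libraries, and the link itself was not measured. *Tln1*, the main talin, had 156 and 230 CPM and *Tln2* 11.6 and 8.59 CPM. Of the kindlins, which act with talin on the beta tail, *Fermt2* had 38.8 and 54.5 CPM, the epithelial *Fermt1* was at 0 in both libraries and the blood-cell *Fermt3* had 0.116 and 0.214 CPM. *Ilk*, the pseudokinase that holds kindlin and parvin together, had 59.6 and 74.7 CPM. Of the 19 genes of this list, 16 had a mean of at least 1 CPM, with a median of 0.22. Among these, 2 were more than 2-fold higher and 2 lower, beside 7.43% and 6.06% of all genes, and 12 were within 2-fold. The higher ones were *Vcl* (vinculin), with 18.6 and 58.5 CPM, and *Parvb*, with 0.670 and 7.26 CPM, which averaged 1 CPM only through replicate 2. The lower ones were *Tns1* (tensin 1), with 45.1 and 22.0 CPM, and *Lims2*, with 19.8 and 8.98 CPM. *Parvg* was at 0 in both. Per kilobase the list was led by *Actn4*, *Actn1*, *Tns2* and *Flna*, all actin-binding or tail-binding proteins, with *Actn4* at 47.1 and 107 CPM per kilobase.

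All 12 genes of adhesion signalling had a mean of at least 1 CPM, and 11 were within 2-fold, with a median of 0.24. Focal adhesion kinase (*Ptk2*) had 45.1 and 60.3 CPM. Its relative *Ptk2b*, with 10.9 and 40.0 CPM, was the 1 gene of the 12 more than 2-fold higher in replicate 2, beside 7.43% of all genes. Per kilobase the small GTPases *Cdc42*, *Rac1* and *Rhoa* led the list, with *Cdc42* at 42.3 and 61.2 CPM per kilobase, and *Crk* followed. The 4 genes of the integrin inhibitor list were all within 2-fold, with a median of 0.00 and with *Itgb1bp1*, the product of which competes with talin for the β1 tail, at 14.4 and 13.5 CPM. The others were *Sharpin* with 19.8 and 23.2 CPM, *Cd82* with 25.8 and 33.6 CPM and *Mdga1* with 32.3 and 58.4 CPM. *Mdga1* was in the list as drawn up but is not an established integrin inhibitor.

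Exons of 4 members overlap those of a gene on the opposite strand. *Itga4* shares 1124 of its 13978 exonic bases with *Cerkl*, *Itgav* 634 bases with *Gm13684*, *Itga8* 372 bases with *E030013I19Rik* and *Fn1* 292 bases with *Apol7d*. The libraries are stranded, but whether strand was used in counting is not given in the sources used here. *Gm13684* had 0 and 0.174 CPM, *E030013I19Rik* 0.0231 and 0 CPM and *Apol7d* 5.70 and 5.29 CPM. *Cerkl*, the partner of *Itga4*, is not analysed here.

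Promoter sequence was at hand for 7 of the 9 members, from RefSeq on GRCm38.p6, and is shown for *Itga5* and *Itgav*, the alpha chains that led replicate 2. In the window of 250 bases before to 50 after the start, on both strands, the GC box (GGGCGG), the TATA box (TATAAA) and the AP-1 site (TGANTCA) were searched. None of the 3 contains another. They were present in 35.7%, 13.6% and 7.8% of 32851 promoters. The GC box was found in 5 of the 7 members, with 3 copies in *Itgb5*, 2 in *Itga5* and 1 each in *Itga4*, *Itgav* and *Itgb1*, and not in *Itga8* or *Itgb8*. The TATA box and the AP-1 site were found in 0 of 7. The 250 bases before the start are printed, with GC boxes in capitals, from chr15:103366792-103367041 on the minus strand for *Itga5* and chr2:83724147-83724396 on the plus strand for *Itgav*, whose GC box lies after the start.
Itga5: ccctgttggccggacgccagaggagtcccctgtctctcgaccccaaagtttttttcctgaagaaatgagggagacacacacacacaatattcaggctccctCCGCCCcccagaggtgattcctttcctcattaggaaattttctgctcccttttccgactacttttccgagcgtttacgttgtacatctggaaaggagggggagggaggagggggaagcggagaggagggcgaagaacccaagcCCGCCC
Itgav: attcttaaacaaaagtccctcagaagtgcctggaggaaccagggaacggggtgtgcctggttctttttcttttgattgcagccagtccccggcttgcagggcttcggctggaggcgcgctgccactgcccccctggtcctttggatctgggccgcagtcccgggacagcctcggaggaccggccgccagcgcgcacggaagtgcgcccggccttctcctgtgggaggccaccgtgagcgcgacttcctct
The share of G and C was 55.6% in *Itga5* and 64.4% in *Itgav*, against a median of 52.4% over all promoters in the same window.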

How the data were processed

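Both libraries were stranded poly(A) libraries sequenced as single-end reads of 50 bases. For alignment the authors used STAR 2.7.3a on GRCm38 with the GENCODE M25 annotation. Gene assignment was by Partek E/M in Partek Flow 10.0.21.0801, which can divide a read among genes, and CPM values were deposited. Each deposited CPM column sums to the per-million total plus an offset of 0.0001 for each gene, which was subtracted. Of values under 1 CPM, 61.8% in replicate 1 and 61.0% in replicate 2 were whole reads within 0.02 of a read, so no count model was fitted.

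Levels are given per library and as mean ± SD. CPM were divided by the union of exons in GENCODE M21 on GRCm38, with 22965 of 23628 gene names (97.2%) matched. Log2 ratios between libraries used a pseudocount of 0.1 CPM. Counting intervals are Poisson or Clopper-Pearson at 95% on reads rounded from the CPM. The step from one subunit to the next was beyond the spread where its log2 ratio had the same sign in both libraries and a mean above its SD. The log2 ratio between libraries was tested on simulated libraries with counting error only and some genes changed. Levels per kilobase, shares, pairs and counting intervals were not tested in this way.

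The members, lists and alternatives were chosen with earlier results of these data known. Named were all members, all integrin subunits and all genes of the pathway lists, but marker lists are given by their sums and leading genes, and of pathway lists over 10 genes the 4 highest per kilobase, those below 3 reads in both libraries and those past 2-fold. Outside this rule *Npnt*, *Tln1*, *Tln2*, *Fermt2*, *Fermt3*, *Ilk* and *Ptk2* were named for their role after their values were seen. Genes with a pattern like that of a member were not sought, since 2 libraries give no measure of likeness. Computation was in Python 3.11.15 with scipy 1.17.1, numpy 2.4.6 and pandas 2.3.3, and plots were made with matplotlib 3.10.9.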

Additional observations from a re-analysis of the deposited data

How the results depend on the processing

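For 26 results, 111 values were recomputed with 1 choice changed. Of these, 90 stayed the same, 20 moved further and 1, beyond its spread in the main setting, changed the sign of its mean. A value stayed the same if it was within the spread between the libraries, or for single-gene ratios within the counting interval. For counts of genes, members or steps it had to be within a fixed fold of the main count. The sign of 2 values near 0 also changed, that of *Itgb1* to *Itgb5* from 0.28 to -0.03 without replicate 2 and that of *Itgb5* between the libraries from -0.03 to 0.28 as deposited. Leaving out 1 of 2 libraries moves a mean by less than 1 SD by arithmetic, so those values are among the 90 whatever the data. Without division by length, the mean log2 ratio of *Itgav* to *Itga5* changed sign to 0.08. There the 2 genes had no common order, with *Itga5* higher in replicate 1 (107 against 88.0 CPM) and *Itgav* in replicate 2 (360 against 266 CPM). On the same scale the log2 ratio of *Fn1* to its receptor subunits was 6.96 and the beta members took 98.9% of beta-subunit CPM. In the order of subunits, 3 steps were beyond the spread in place of 5. When the per-million total was taken over all but the 10 highest genes, levels were higher because the total was smaller, at 285209 CPM for *Fn1*, 939 for *Itgb1*, 654 for *Itgb5* and 5.31 for *Itgb8*. With no filter, 4362 of 20217 genes and 6 of 9 members were past 2-fold. With a mean of at least 10 CPM, 565 of 7903 genes and 3 of 6 members (*Itga5*, *Itgav* and *Itgb3*) were past it. The main setting had 1704 of 12631 genes and 5 of 8 members. *Itga8* and *Itgb8* were below the filter of 10 CPM. *Itgb8* was within 2-fold as deposited and with a pseudocount of 1 CPM. No paired analysis was possible because both libraries belong to 1 group. Depth limits *Itga4* and *Itga8*, at 4 and 5 reads in replicate 1.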
